A study of Mus musculus with 4 samples.

Results

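The cells described here are the endothelial cells of mouse pancreatic islets, 711 of the 18612 cells in 4 single-cell RNA libraries. A cell was taken as endothelial when at least 4 of the 8 transcripts Pecam1, Cdh5, Plvap, Flt1, Kdr, Esam, Egfl7 and Emcn were detected in it. Ins1 and Ins2 together had to make up less than 10% of its transcripts, Gcg and Sst less than 3% each, and at most 2 of the macrophage genes C1qa, C1qb, C1qc, Tyrobp and Fcer1g could be detected. The cells were thus selected on measured values, and the levels of the genes in the rule are given as a description without a test. Islets came from C57BL/6 mice of 2 genotypes, with 2 libraries each. The knockout (KO) mice carried floxed Sel1L and a Cre recombinase driven by the insulin gene Ins1, which is active in beta cells. The wild type (WT) mice carried floxed Sel1L without Cre. The samples are labelled as 7 weeks old, whereas the series text gives 5 weeks. Isolated islets were kept overnight in culture and dissociated with trypsin, and transcripts were counted as unique molecular identifiers (UMIs) with the 10x Genomics 3′ assay. No mice with Cre and intact Sel1L were analysed here, so the deletion and the presence of Cre cannot be told apart. Nothing in the labels ties replicates to different animals, and p-values therefore measure differences relative to the spread of these 4 libraries, which may be technical.

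Islet capillaries are dense and fenestrated: their endothelium is pierced by pores closed by diaphragms made of the protein PLVAP. Beta cells secrete VEGF-A, which acts through the receptors KDR and FLT1 on endothelial cells and maintains this network and its fenestrae, while the endothelium supplies much of the basement membrane on which the endocrine cells rest. SEL1L works with the ubiquitin ligase HRD1 to remove misfolded proteins from the endoplasmic reticulum (ER). Ins1-Cre targets Sel1L in beta cells, so the endothelial cells are neighbours of the targeted cells.

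The rule found 184 and 177 endothelial cells in the KO libraries, against 172 and 178 in the WT libraries. They were 4.24% (exact binomial 95% interval 3.66 to 4.89) and 7.13% (6.15 to 8.21) of all cells in the KO libraries, against 2.89% (2.48 to 3.35) and 3.05% (2.62 to 3.52) in the WT libraries. These intervals cover counting error only. Both KO shares lay above both WT shares, with a mean of 5.69% ± 2.04 in KO and 2.97% ± 0.111 in WT (SD, n = 2 each), but an exact two-sided permutation test gave p = 0.333, the smallest value that 2 libraries against 2 allow. The number of endothelial cells differed little between libraries, while 4337 and 2483 cells were recovered in all in KO and 5951 and 5841 in WT. Fewer other cells and more endothelial cells cannot be told apart in such a share.

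**Figure D1:**
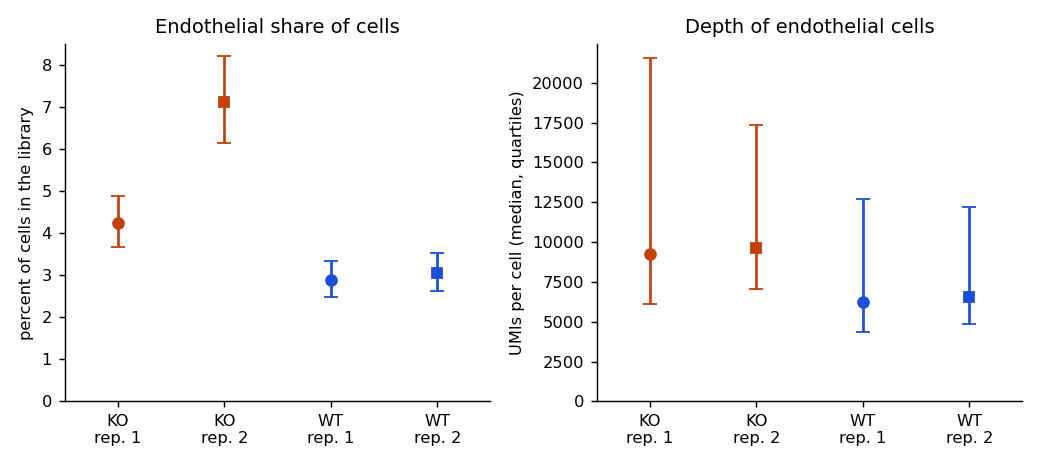
Left, endothelial cells as a percentage of all cells in each library, with exact binomial 95% intervals. Right, UMIs per endothelial cell in each library, as the median with quartiles. Both KO libraries lay above both WT libraries in share (4.24% and 7.13% in KO, 2.89% and 3.05% in WT) and in median UMIs (9263 and 9640 in KO, 6242 and 6534 in WT).

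KO endothelial cells were also deeper, with a median of 9263 and 9640 UMIs per cell in KO and 6242 and 6534 in WT. A median of 3214.5 and 3137 genes was detected in KO and of 2455 and 2518 in WT, and mitochondrial transcripts made up a median of 3.47% and 3.48% of UMIs in KO and 2.80% and 2.62% in WT. Their part in the differences below was not tested. The libraries held between 99156230 and 228515309 UMIs in all cells, any pair of libraries shared 1 to 9 cell barcodes, and 0 of these were endothelial in both. At the edge of the rule, 22 members had exactly 4 of the 8 markers (median 1135 UMIs), and 13 cells that met the other conditions had 3 (median 1040 UMIs). Insulin made up 5% to 10% of UMIs in 11 members, and 0 cells with at least 4 of the markers lay between 10% and 15%.

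All 8 markers of the rule were detected in 610 of the 711 cells (85.8%), and 0 of the 5 macrophage genes in 661. The rule selected for both, so these counts are a description. Genes that the rule did not use bore out the endothelial label and were high in the same cells. Esm1, a proteoglycan of islet and sprouting capillaries, averaged 2027 CPM in endothelial and 2.51 CPM in all other cells. The angiopoietin receptor Tek averaged 90.8 CPM in endothelial and 0.112 CPM in all other cells, and its partner Tie1 164 CPM in endothelial and 0.223 CPM in all other cells. The TGF-beta co-receptor Eng averaged 1576 CPM in endothelial and 3.14 CPM in all other cells, and the tight junction claudin Cldn5 149.9 CPM in endothelial and 0.543 CPM in all other cells. These are averages over the 4 libraries on the scale of UMIs per 1000000 UMIs (CPM), which is not corrected for gene length.

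**Figure D2:**
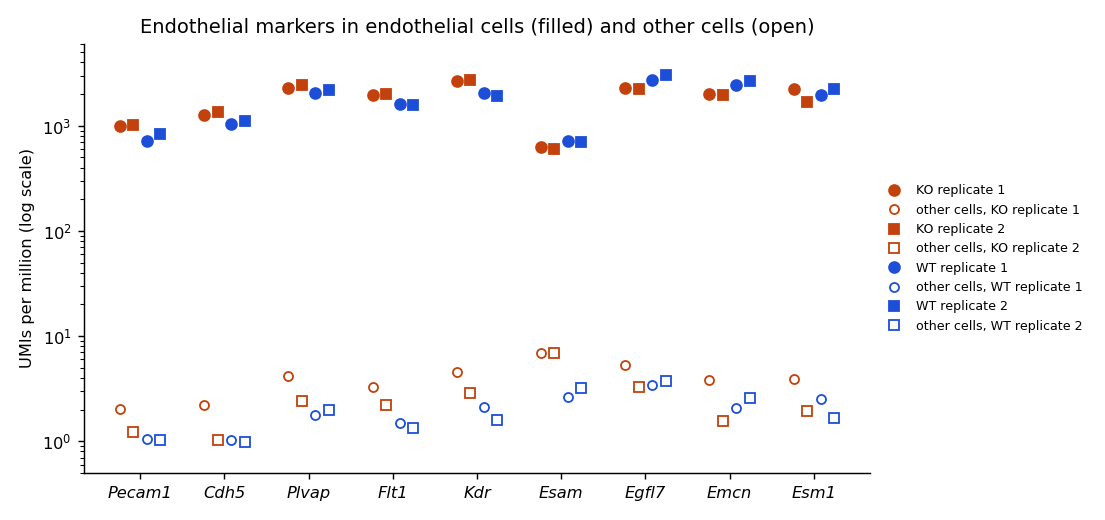
CPM in endothelial cells and in all other cells of each library, for the 8 markers of the rule and Esm1. The ratio of endothelial to other cells ran from 137 for Esam to 912 for Cdh5.

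Among genes with at least 50 CPM, the 20 with the highest ratio of endothelial to other cells lay between 839-fold and 1039-fold. They were Kcne3, Grrp1, Apln, Ctla2a, Gata2, Aplnr, Btnl9, Robo4, Cdh5, Clec14a, Col13a1, Emcn, Adgrl4, Myct1, Plvap, Fabp4, Flt1, Ecscr, Kdr and Ptprb. The group holds the receptor Aplnr with its ligand Apln, the vascular guidance receptor Robo4, the transcription factor Gata2, the fatty acid carrier Fabp4 and the phosphatase Ptprb of endothelial junctions. Robo4 had 298 and 301 CPM in KO and 263 and 254 CPM in WT endothelial cells. The cells were chosen as endothelial, so these ratios were not tested.

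Endothelial genes are typically bound by transcription factors of the ETS family, which recognise a GGAA core. The promoters of 3 of these genes are shown to let their sequence be compared, a membrane sialomucin, a guidance receptor and the main VEGF receptor; the letters CAGGAA, or TTCCTG on the other strand, are in capitals. They run from 250 bases before to 50 after the start in RefSeq (GRCm38.p6).
Emcn promoter, chr3:137340828-137341127, plus strand: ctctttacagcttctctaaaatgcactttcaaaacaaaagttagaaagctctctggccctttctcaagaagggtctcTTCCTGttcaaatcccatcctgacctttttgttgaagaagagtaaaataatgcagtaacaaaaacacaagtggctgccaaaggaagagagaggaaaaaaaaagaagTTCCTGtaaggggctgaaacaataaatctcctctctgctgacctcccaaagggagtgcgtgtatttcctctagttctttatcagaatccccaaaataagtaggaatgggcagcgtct
Robo4 promoter, chr9:37401722-37402021, plus strand: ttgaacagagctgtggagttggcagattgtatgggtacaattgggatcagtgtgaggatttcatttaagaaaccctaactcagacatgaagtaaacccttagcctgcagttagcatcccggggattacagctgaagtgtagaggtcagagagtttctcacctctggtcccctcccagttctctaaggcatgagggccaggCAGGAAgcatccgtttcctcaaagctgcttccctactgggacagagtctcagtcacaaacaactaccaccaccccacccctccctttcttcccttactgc
Kdr promoter, chr5:75978406-75978705, minus strand: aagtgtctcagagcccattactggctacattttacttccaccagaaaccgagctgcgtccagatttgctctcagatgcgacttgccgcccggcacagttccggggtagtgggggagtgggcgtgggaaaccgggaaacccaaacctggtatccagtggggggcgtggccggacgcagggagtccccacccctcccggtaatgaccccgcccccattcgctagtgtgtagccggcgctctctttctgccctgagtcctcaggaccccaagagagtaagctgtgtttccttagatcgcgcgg
The promoters of Emcn and Robo4 held the letters and that of Kdr did not. Of the 20 genes, 14 had a promoter in the table and 9 of these held the letters on either strand, against 33.4% of 27025 genes with a promoter there. A match describes the window and is not evidence of binding.

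Levels differed widely among the markers of vessel subtypes. Gpihbp1, which carries lipoprotein lipase across capillary endothelium, had 1202 and 1118 CPM in KO and 719 and 1015 CPM in WT, and the capillary cell cycle regulator Rgcc had 1509.9 and 1392 CPM in KO and 1741 and 1488 CPM in WT. Of other capillary genes, the carbonic anhydrase Car4 had 48.7 and 65.8 CPM in KO and 59.7 and 16.8 CPM in WT and the fatty acid transporter Cd36 2.21 and 3.29 CPM in KO and 3.14 and 6.6 CPM in WT. Among arterial genes the connexin Gja5 had 0 and 5 UMIs in KO and 2 and 0 in WT. Bmx had 2.58 and 2.06 CPM in KO and 5.03 and 1.80 CPM in WT, and Fbln5 8.48 and 15.6 CPM in KO and 11.9 and 4.20 CPM in WT. Some other arterial genes were well detected. The connexin Gja4 had 146 and 129 CPM in KO and 162 and 108 CPM in WT. The Notch ligand Dll4 had 343 and 295 CPM in KO and 267 and 316 CPM in WT. The ephrin Efnb2 had 279 and 241 CPM in KO and 173 and 167 CPM in WT. The venous list holds the semaphorin and VEGF co-receptor Nrp2, with 346 and 417 CPM in KO and 269 and 304 CPM in WT. It also holds the prostaglandin transporter Slco2a1, with 254 and 415 CPM in KO and 138 and 214 CPM in WT. Several other venous genes were lower. Nr2f2 had 45.7 and 52.6 CPM in KO and 29.6 and 35.4 CPM in WT, and Vcam1 11.8 and 27.6 CPM in KO and 28.9 and 8.40 CPM in WT. Selp had 22.9 and 58.4 CPM in KO and 11.9 and 45.6 CPM in WT, and Lrg1 12.9 and 53.9 CPM in KO and 34.6 and 51.0 CPM in WT. The capillary gene Cd300lg had 237 and 282 CPM in KO and 314 and 276 CPM in WT. Plvap and Kdr, also capillary genes, are rule markers and were high in every library. Of the capillary genes looked at, only Car4 and Cd36 were thus low. The arterial and venous lists each held high and low genes. These markers did not assign the cells to 1 vessel type, and no assignment was tested.

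Lyve1, a lymphatic receptor, had 0 and 3 UMIs in KO and 0 and 0 in WT, and Reln had 0 in all 4 libraries. Prox1, the lymphatic transcription factor, had 9.58 and 8.23 CPM in KO and 8.80 and 7.80 CPM in WT, compared with 33.0 and 34.2 CPM in KO and 22.8 and 18.7 CPM in WT in all other cells. Flt4, which the lymphatic list also holds, was found in 75.5% and 74.0% of KO and 56.4% and 62.9% of WT endothelial cells. Lyve1 was found in 0% and 1.69% of KO and 0% and 0% of WT endothelial cells. It was found in more beta cells, 7.80% and 8.38% of KO and 12.2% and 7.99% of WT (medians of 43949 to 51289 UMIs). The Lyve1 share in endothelial cells is thus no higher than background. The venous receptor Ackr1 had a UMI in 2.17% and 5.08% of KO and 1.74% and 3.37% of WT endothelial cells, compared with 0.0404% and 0.0716% of KO and 0% and 0% of WT beta cells. The proliferation gene Mki67 was found in 1.09% and 0% of KO and 1.74% and 1.12% of WT endothelial cells, compared with 4.69% and 4.87% of KO and 4.34% and 3.25% of WT beta cells, which are deeper and whose share is no background level. After thinning to 2000 UMIs the shares were 0% and 0% of KO and 1.23% and 0.575% of WT endothelial cells. Its UMIs numbered 5 and 0 in KO and 26 and 5 in WT, and those of Top2a, another gene of dividing cells, 4 and 3 in KO and 16 and 10 in WT, so these values rest on few counts.

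Some endothelial cells also carried RNA of pericytes, the mural cells that wrap capillaries. At least 2 of the 8 genes Col1a1, Col1a2, Col3a1, Dcn, Pdgfra, Pdgfrb, Rgs5 and Lum were detected in 61 and 35 cells of KO (33.2% and 19.8%) and in 50 and 43 of WT (29.1% and 24.2%). These 189 cells had a median of 24230 and 28042 UMIs in KO and 15710 and 17918 in WT. In them the pericyte receptor Pdgfrb had 408 and 375 CPM in KO and 435 and 416 CPM in WT, and the matrix protein Mgp had 9039.9 and 8385 CPM in KO and 9965 and 10403 CPM in WT. Scrublet, which scores doublets, marked 22 of the 711 endothelial cells and 2 of these 189. Whether they are doublets was not tested.

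A reduced set of 505 endothelial cells was therefore formed after the data were seen, without these cells and without cells in which at least 1% of UMIs came from Ppy, Pyy, Iapp or globin genes. It held 111 and 140 cells in KO and 120 and 134 in WT. In it Pdgfrb had 0.993 and 2.89 CPM in KO and 0 and 0 CPM in WT and Mgp had 51.7 and 67.3 CPM in KO and 106 and 116 CPM in WT, while Rgs5, another pericyte gene, still had 197 and 103 CPM in KO and 109 and 122 CPM in WT.

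Sel1l had 50.5 and 65.0 CPM in KO and 40.9 and 39.6 CPM in WT in endothelial cells (chr12:91806043-91849157, GRCm38, GENCODE vM21). Both KO libraries were above both WT libraries, but the gene was not called in the test described next (log2 change 0.46 ± 0.18, adjusted p 0.19 by edgeR, where ± gives the standard error here and for every log2 change below). Transcripts were counted at the 3′ end, which does not check the deletion, and the gene is not targeted in these cells.

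Genotypes were compared on the UMIs summed over the endothelial cells of each library, with edgeR's quasi-likelihood test and Benjamini-Hochberg adjustment over 9448 genes. A gene was called at an adjusted p under 0.05, and every adjusted p below is from this test. In KO endothelial cells 62 genes rose (0.656%) and 36 fell (0.381%), and 1899 had an unadjusted p under 0.05. The median size of the 98 changes was 0.74 on the log2 scale, and 31 exceeded 1. In the reduced set 28 of 7772 genes rose (0.36%) and 15 fell (0.193%). Of the 98 genes, 90 were tested there, 82 had the same direction with an unadjusted p under 0.05, and 30 were called. The reduced set is a part of the same cells from the same libraries, so this is not an independent test. With library size alone in place of TMM scaling, 78 genes rose and 13 fell. The count was 68 without KO replicate 1, 32 without KO replicate 2, 151 without WT replicate 1 and 198 without WT replicate 2.

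The genes that rose included endothelial genes and a nuclear RNA. Vwf, the von Willebrand factor that endothelial cells store and release to capture platelets (chr6:125546774-125686679), had 84.8 and 63.3 CPM in KO and 20.8 and 23.4 CPM in WT (log2 change 1.69 ± 0.20, adjusted p 0.0097). It was called in 18 of 18 alternatives (adjusted p up to 0.030), and its log2 change was 1.55 ± 0.25 in the reduced set. Here and below, an alternative that gave a gene no adjusted p is left out of that gene's count. A Vwf UMI was found in 47.8% and 31.1% of KO and 9.30% and 12.4% of WT endothelial cells, and in 17.1% and 12.7% of KO and 4.94% and 3.45% of WT cells after each was thinned to 2000 UMIs. Thinning left out 20 and 12 shallower cells in KO and 10 and 4 in WT. Among beta cells, which should lack the gene, 0.445% and 0.0716% of KO and 0.428% and 0.217% of WT cells had a UMI. The KO and WT libraries did not overlap in any of these endothelial values.

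Neat1, the noncoding RNA that scaffolds nuclear paraspeckles (chr19:5824708-5845478), had 281 and 274 CPM in KO and 78.0 and 76.2 CPM in WT (log2 change 1.79 ± 0.11, adjusted p 8.0e-05), and it was called in 19 of 19 alternatives (adjusted p up to 5.4e-04). Ldb2, a binding partner of LIM domain proteins (chr5:44472132-44799680), had 122 and 138 CPM in KO and 56.0 and 61.8 CPM in WT (log2 change 1.08 ± 0.13, adjusted p 0.0097) and was called in 19 of 19 alternatives (adjusted p up to 0.030). Neurl3, of the neuralized family (chr1:36264597-36274679), had 99.5 and 99.5 CPM in KO and 37.1 and 45.0 CPM in WT (log2 change 1.21 ± 0.14, adjusted p 0.0097) and was called in 18 of 18 alternatives (adjusted p up to 0.038). These 3 genes, like Vwf, were more than 2-fold higher in KO. The largest changes were named only where libraries did not overlap in CPM, so that absence of overlap adds no support. Both KO libraries were above both WT libraries in 31.3% of all genes tested.

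Further increases were smaller and less stable. The scaffold Shank3 had 127 and 123 CPM in KO and 52.8 and 75.6 CPM in WT (log2 change 0.90 ± 0.15, adjusted p 0.042, and 0.063 without KO replicate 1 and 0.091 without KO replicate 2). The ubiquitin ligase Neurl1b had 53.8 and 54.3 CPM in KO and 27.7 and 25.8 CPM in WT (log2 change 0.95 ± 0.17, adjusted p 0.042, and 0.067 without KO replicate 1 and 0.13 without KO replicate 2). Both genes were higher in both KO libraries, and both lost their call without KO replicate 1 and without KO replicate 2. Mcf2l had 107 and 108 CPM in KO and 57.2 and 48.0 CPM in WT (log2 change 0.97 ± 0.14, adjusted p 0.021). In the reduced set its log2 change was 0.72 ± 0.20, and it was not called (adjusted p 0.13).

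**Figure D3:**
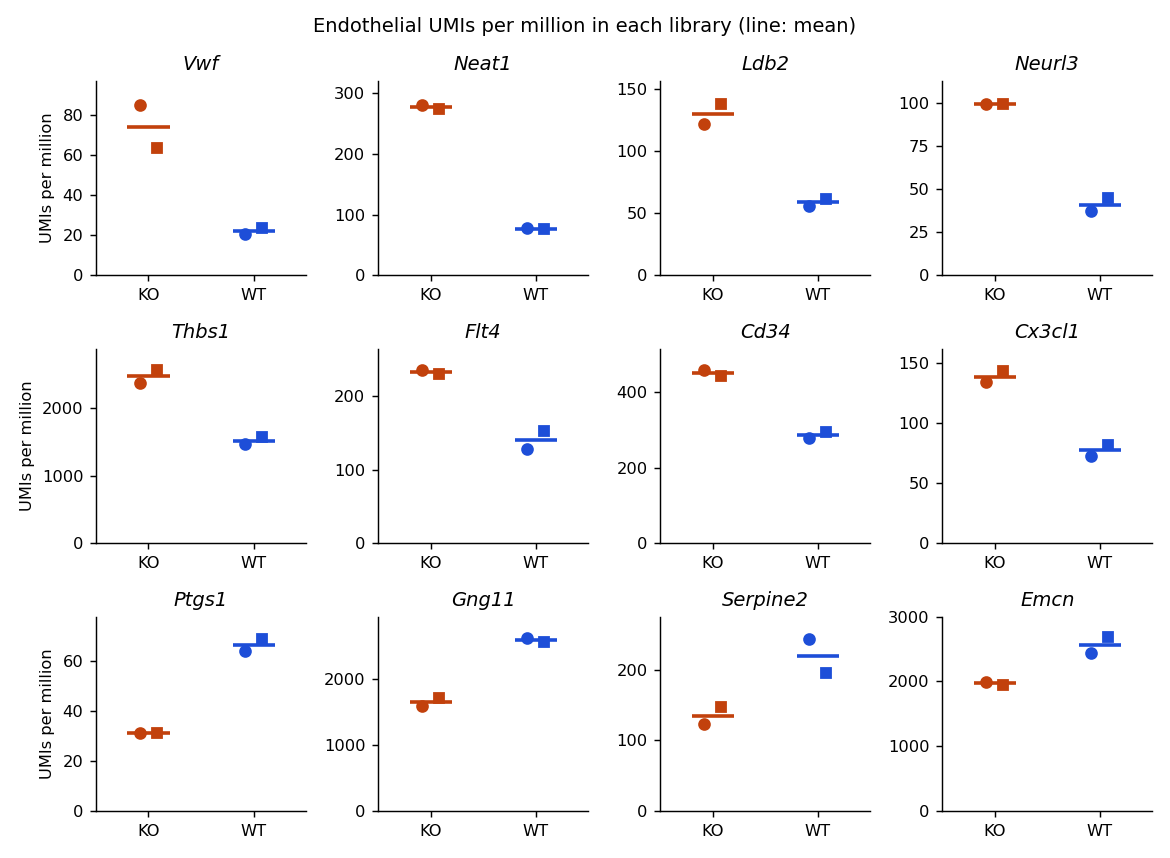
CPM in the endothelial cells of each library for called genes and Emcn, a marker of the rule, with the KO libraries left of the WT libraries in each panel. Vwf had 84.8 and 63.3 CPM in KO and 20.8 and 23.4 CPM in WT, and Gng11 had 1591 and 1717 CPM in KO and 2632 and 2571 CPM in WT.

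Secreted and surface proteins that act on neighbouring cells were among the called genes. Thbs1, thrombospondin 1, an inhibitor of angiogenesis (chr2:118111876-118127133), had 2378 and 2563 CPM in KO and 1469 and 1572 CPM in WT (log2 change 0.64 ± 0.09, adjusted p 0.016, and 0.080 without KO replicate 2). The activin subunit Inhbb had 574 and 543 CPM in KO and 317 and 355 CPM in WT (log2 change 0.67 ± 0.10, adjusted p 0.029, and 0.059 without KO replicate 1 and 0.062 without KO replicate 2). In the list of angiocrine and paracrine factors, which holds both, 2 of 30 tested genes rose and 0 fell, with a median log2 change of -0.058. Of 29 tested in the reduced set 2 rose and 0 fell (median 0.075). Over all genes tested 0.656% rose and 0.381% fell, with a median of 0.0048. In the reduced set 0.36% rose and 0.193% fell. These shares are the background for every list here and below, and whether any list exceeds them was not tested. The membrane-bound chemokine Cx3cl1, which tethers monocytes, had 134 and 144 CPM in KO and 73.0 and 82.2 CPM in WT (log2 change 0.78 ± 0.12, adjusted p 0.024, and 0.11 without KO replicate 2). In its list of adhesion and inflammatory activation 1 of 29 tested genes rose and 0 fell, with a median log2 change of 0.16. Of 25 tested in the reduced set 2 rose and 0 fell (median 0.22).

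In the list of VEGF and angiopoietin receptors and ligands 2 of 18 tested genes rose and 0 fell, with a median log2 change of 0.35. Of 15 tested in the reduced set 0 rose and 0 fell (median 0.35). Both KO libraries were above both WT libraries in 11 of its genes and below them in 1, compared with 31.3% and 20.6% of all genes tested. The list holds the rule markers Flt1 and Kdr, both among the 11. Without them 9 of 16 genes were higher and 1 lower in this way, with a median log2 change of 0.35. Flt4, the receptor of VEGF-C (chr11:49609263-49652739), had 235 and 229.9 CPM in KO and 128 and 152 CPM in WT (log2 change 0.67 ± 0.11, adjusted p 0.042, and 0.069 without KO replicate 1, 0.12 without KO replicate 2 and 0.062 without WT replicate 1). The semaphorin Sema3f had 348 and 381 CPM in KO and 231 and 242 CPM in WT (log2 change 0.56 ± 0.10, adjusted p 0.043, and 0.060 without KO replicate 1, 0.24 without KO replicate 2 and 0.063 without WT replicate 1). These 2 genes make up the calls of the list, and neither was called in the reduced set, where the log2 change was 0.65 ± 0.14 for Flt4 (adjusted p 0.069) and 0.57 ± 0.13 for Sema3f (adjusted p 0.084). The angiopoietin receptor Tek had 109.8 and 110.2 CPM in KO and 69.8 and 73.2 CPM in WT (log2 change 0.56 ± 0.12, adjusted p 0.060), and its partner Tie1 had 189.8 and 193 CPM in KO and 129 and 143 CPM in WT (log2 change 0.43 ± 0.11, adjusted p 0.086). Both were apart between genotypes without passing the threshold. The ligand Angpt2 had 284 and 313 CPM in KO and 315 and 326 CPM in WT, and the VEGF co-receptor Nrp1 had 590.2 and 589 CPM in KO and 563 and 634 CPM in WT, with overlap between genotypes for Nrp1.

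In the list of endothelial identity 2 of 42 tested genes rose and 1 fell, with a median log2 change of 0.22. Of 42 tested in the reduced set 1 rose and 0 fell (median 0.21). It holds all 8 rule markers, and without them 2 of 34 rose and 0 fell (median 0.23). Vwf and the sialomucin Cd34 rose, Cd34 (chr1:194938819-194961279) with 459 and 443 CPM in KO and 279 and 295 CPM in WT (log2 change 0.59 ± 0.10, adjusted p 0.042, and 0.077 without KO replicate 1 and 0.11 without KO replicate 2). The gene counted as lower is the rule marker Emcn, with 1986 and 1952 CPM in KO and 2442 and 2691 CPM in WT. Of the other rule markers, the secreted protein Egfl7 had 2278 and 2227 CPM in KO and 2716 and 3027 CPM in WT, the junction protein Esam had 633 and 603 CPM in KO and 724 and 709 CPM in WT, and the VEGF receptor Kdr had 2639 and 2756 CPM in KO and 2072 and 1931 CPM in WT. Flt1 had 1956 and 1987 CPM in KO and 1597 and 1572 CPM in WT, the junctional cadherin Cdh5 had 1273 and 1366 CPM in KO and 1041 and 1103 CPM in WT, and the adhesion molecule Pecam1 had 992 and 1025 CPM in KO and 719 and 839 CPM in WT. The diaphragm protein Plvap had 2295 and 2464 CPM in KO and 2038 and 2193 CPM in WT. Emcn, Egfl7 and Esam were thus lower in both KO libraries and the other 5 higher; because these genes chose the cells, no test supports the difference.

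In the venous list, which also holds Vwf and Emcn, 1 of 11 tested genes rose and 1 fell, with a median log2 change of 0.43. The gene counted as lower is the rule marker Emcn, and without it 1 of 10 rose and 0 fell (median 0.48). Of 11 tested in the reduced set 1 rose and 0 fell (median 0.46). In the arterial list 0 of 14 tested genes rose and 0 fell, with a median log2 change of 0.07. Of 12 tested in the reduced set 1 rose and 1 fell (median 0.11). Sema3g, an arterial semaphorin named after its values were seen, had 64.9 and 75.3 CPM in KO and 39.6 and 16.2 CPM in WT (log2 change 1.27 ± 0.29, adjusted p 0.077). In the reduced set it was the arterial gene that rose, with a log2 change of 1.43 ± 0.26 (adjusted p 0.030), and the gene that fell was Mgp. In the list of fenestrae, which holds the rule marker Plvap, 0 of 11 tested genes rose and 0 fell, with a median log2 change of 0.088. Without Plvap 0 of 10 rose and 0 fell (median 0.080). Of 11 tested in the reduced set 0 rose and 0 fell (median 0.16). For capillary lipid handling 0 of 18 tested genes rose and 0 fell, with a median log2 change of 0.22. Of 15 tested in the reduced set 1 rose and 0 fell (median 0.28). In the Notch list 0 of 17 tested genes rose and 0 fell, with a median log2 change of 0.10. Of 14 tested in the reduced set 0 rose and 0 fell (median 0.15). In the tip cell list 1 of 21 tested genes rose and 0 fell, with a median log2 change of 0.15. The gene that rose is Cd34, already counted in the list of endothelial identity. Of 20 tested in the reduced set 1 rose and 0 fell (median 0.18).

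Among the genes that fell, Gng11, a G protein gamma subunit (chr6:4003904-4008445), had 1591 and 1717 CPM in KO and 2632 and 2571 CPM in WT (log2 change -0.71 ± 0.09, adjusted p 0.0097). Ptgs1, the constitutive cyclooxygenase of prostanoid synthesis (chr2:36230426-36252272), had 31.3 and 31.3 CPM in KO and 64.1 and 69.0 CPM in WT (log2 change -1.15 ± 0.15, adjusted p 0.016). Both kept their call without any 1 library; Gng11 was called in 17 of 19 alternatives (adjusted p up to 0.73) and Ptgs1 was called in 17 of 18 alternatives (adjusted p up to 0.054). The protease inhibitor Serpine2 had 123 and 147 CPM in KO and 244 and 196 CPM in WT (log2 change -0.77 ± 0.14, adjusted p 0.042, and 0.11 without KO replicate 1, 0.079 without KO replicate 2 and 0.068 without WT replicate 1). With Vwf it accounts for the calls of the coagulation list, in which 1 of 17 tested genes rose and 1 fell, with a median log2 change of -0.016. Of 16 tested in the reduced set 2 rose and 2 fell (median -0.19).

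Id3, an inhibitor of DNA binding that BMP signals induce, had 2303 and 2093 CPM in KO and 3006 and 2988 CPM in WT (log2 change -0.51 ± 0.09, adjusted p 0.042, and 0.056 without KO replicate 1 and 0.23 without KO replicate 2). It is the call of the TGF-beta and BMP list, in which 0 of 30 tested genes rose and 1 fell, with a median log2 change of 0.21. Of 27 tested in the reduced set 0 rose and 0 fell (median 0.19). The transmembrane collagen Col13a1 had 616 and 554 CPM in KO and 772 and 878 CPM in WT (log2 change -0.56 ± 0.10, adjusted p 0.044, and 0.060 without KO replicate 1 and 0.25 without KO replicate 2). It is the call of the basement membrane list, in which 0 of 26 tested genes rose and 1 fell, with a median log2 change of 0.034. Of 21 tested in the reduced set 0 rose and 0 fell (median -0.0092). The cell cycle inhibitor Cdkn1a, a p53 target, had 647 and 689 CPM in KO and 1005 and 898 CPM in WT (log2 change -0.57 ± 0.10, adjusted p 0.042, and 0.11 without KO replicate 1 and 0.13 without KO replicate 2). In the cell cycle list 0 of 24 tested genes rose and 1 fell, with a median log2 change of -0.19. Of 18 tested in the reduced set 0 rose and 0 fell (median -0.20). Phlda3, another p53 target, had 68.9 and 62.9 CPM in KO and 101 and 109 CPM in WT (log2 change -0.73 ± 0.12, adjusted p 0.042, and 0.060 without KO replicate 1 and 0.19 without KO replicate 2), and the translation repressor Eif4ebp1 had 142 and 152 CPM in KO and 209 and 236 CPM in WT (log2 change -0.66 ± 0.11, adjusted p 0.040, and 0.090 without KO replicate 1 and 0.11 without KO replicate 2). The log2 changes of Sncg, Fam110a, Exosc3, Txnl4a and Gm13889 lay between -1.02 and -0.72, and all 5 lost their call without KO replicate 2 (adjusted p between 0.17 and 0.22). Gm13889 had 677 and 516 CPM in KO and 880 and 1023 CPM in WT in all endothelial cells. In the reduced set it had only 32.8 and 65.1 CPM in KO and 159 and 30.3 CPM in WT. The genotypes overlapped there, and Gm13889 was not called (adjusted p 0.37 by edgeR). Counted per cell in place of CPM, the median gene was 0.68 higher in KO on the log2 scale, and Emcn, Id3, Col13a1, Cdkn1a, Eif4ebp1, Asns and Spp1 were then higher in KO.

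No gene of the unfolded protein response rose. Among ER chaperones and genes of that response 0 of 38 tested genes rose and 1 fell, with a median log2 change of -0.19. Of 38 tested in the reduced set 0 rose and 1 fell (median -0.25). Both KO libraries were below both WT libraries in 16 of the genes and above them in 8, compared with 20.6% and 31.3% of all genes tested. The gene that fell was Asns, the asparagine synthetase induced by ATF4, with 133 and 119 CPM in KO and 174 and 206 CPM in WT (log2 change -0.65 ± 0.12, adjusted p 0.042, and 0.060 without KO replicate 1, 0.25 without KO replicate 2 and 0.076 without WT replicate 2). Among genes of ER-associated degradation 0 of 25 tested genes rose and 0 fell, with a median log2 change of -0.033. Of 25 tested in the reduced set 0 rose and 0 fell (median -0.016). For hypoxia and glycolysis 0 of 28 tested genes rose and 0 fell, with a median log2 change of -0.22. Of 25 tested in the reduced set 0 rose and 0 fell (median -0.18). For the immediate early and dissociation response 0 of 41 tested genes rose and 0 fell, with a median log2 change of -0.16. Of 39 tested in the reduced set 0 rose and 1 fell (median -0.19). For metallothioneins and oxidative stress 0 of 20 tested genes rose and 0 fell, with a median log2 change of -0.18. Of 18 tested in the reduced set 0 rose and 0 fell (median -0.20). For antigen presentation and interferon 0 of 39 tested genes rose and 0 fell, with a median log2 change of -0.037. Of 39 tested in the reduced set 1 rose and 0 fell (median 0.23). For the flow and KLF response, where Ptgs1 is the gene that fell, 0 of 15 tested genes rose and 1 fell, with a median log2 change of 0.044. Of 15 tested in the reduced set 1 rose and 1 fell (median 0.048).

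Several called genes had changes of the same sign in other cell types of the same libraries, each fitted alone. Gm42418, a locus overlapping ribosomal RNA sequence, had 5709 and 5871 CPM in KO and 3277 and 2702 CPM in WT in endothelial cells (log2 change 0.89 ± 0.10), and its change was 1.75 ± 0.13 in macrophages, 0.97 ± 0.09 in beta cells and 0.69 ± 0.44 in stromal cells. The mitochondrial leucyl-tRNA synthetase Lars2 had 251 and 343 CPM in KO and 128 and 98.4 CPM in WT (log2 change 1.33 ± 0.17), with 1.40 ± 0.17 in macrophages and 0.88 ± 0.07 in beta cells. The mitochondrial transcript mt-Co3, named after its values were seen, had 4687 and 4672 CPM in KO and 2730.1 and 3025 CPM in WT (log2 change 0.64 ± 0.08), with 0.55 ± 0.12 in macrophages. The ribosomal protein gene Rpl29, which has many processed copies and so an uncertain count, had 436 and 222 CPM in KO and 741 and 839 CPM in WT (log2 change -1.32 ± 0.24), with -1.11 ± 0.25 in macrophages and -1.10 ± 0.32 in beta cells. Neat1 changed by 0.49 ± 0.15 in macrophages, 1.57 ± 0.44 in stromal cells and 0.38 ± 0.14 in beta cells and was called in none of them. The macrophage changes of mt-Co3 and Rpl29 were not called either (adjusted p 0.063 for both by edgeR). In stromal cells Gm42418, Lars2, mt-Co3 and Rpl29 were not called (adjusted p 0.68 to 0.84 by edgeR). There Gm42418 had 1489 CPM in WT replicate 1 and 4979 CPM in WT replicate 2. The part of RNA quality and depth in these values was not tested.

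Ins1 RNA was present in nearly all endothelial cells, with 499.8 and 277 CPM in KO and 1835 and 2066 CPM in WT, a log2 change of -2.39 ± 0.22. The change was -2.55 ± 0.18 in beta cells, -2.78 ± 0.20 in stromal cells and -3.01 ± 0.17 in macrophages. Ins2 was detected in 100% of the endothelial cells of each library. Insulin limited membership in the rule, so these values are a description.

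**Figure D4:**
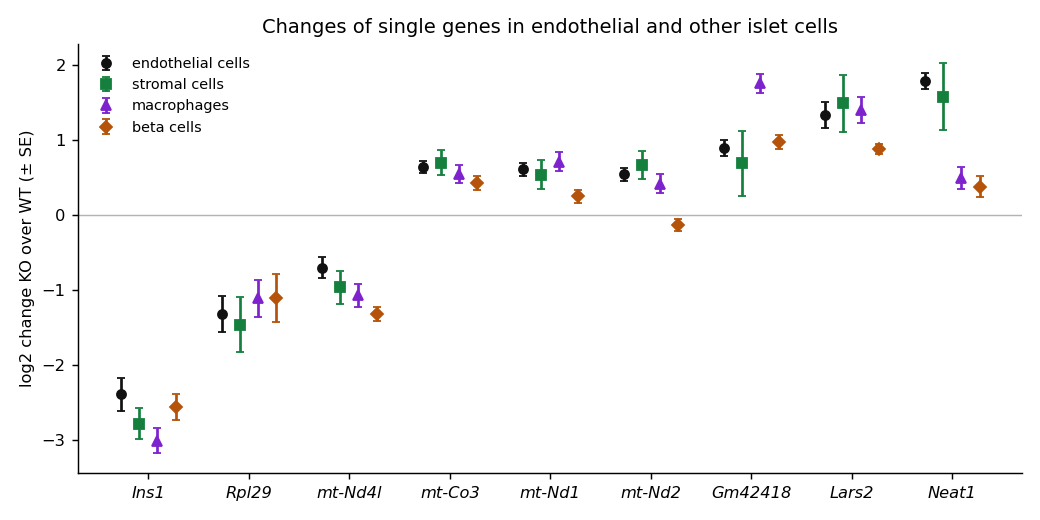
Log2 change of KO over WT, with its standard error, in endothelial, stromal, macrophage and beta cells of the same libraries. For Ins1 the values were -2.39 in endothelial cells and -3.01 in macrophages, and for Neat1 they were 1.79 in endothelial cells and 0.49 in macrophages.

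Among called genes with at least 50 CPM, the largest increases were in islet hormone RNA carried by a few cells. Ppy, pancreatic polypeptide, had 4941 and 9039.8 CPM in KO and 326 and 487 CPM in WT (log2 change 4.04 ± 0.27), and the 5 highest cells held 91.2% and 97.6% in KO and 30.3% and 21.2% in WT of its UMIs. The related hormone Pyy had 3067 and 2638 CPM in KO and 193 and 261 CPM in WT (log2 change 3.59 ± 0.14), and the 5 highest cells held 88.7% and 93.8% in KO and 17.9% and 18.2% in WT. Without the cells rich in hormone RNA, in the reduced set, the log2 change was -0.28 ± 0.29 for Ppy and 0.26 ± 0.22 for Pyy. The granule genes Resp18 and Scg2, called higher at 1.1 ± 0.15 and 1.66 ± 0.24, changed by -0.78 and 0.058 there, and Scg3, called at 1.74 ± 0.34, was too low to be tested there. In the list of other endocrine genes 2 of 11 tested genes rose and 0 fell, with a median log2 change of 0.66. Of 8 tested in the reduced set 0 rose and 0 fell (median -0.27). In the beta cell list 2 of 14 tested genes rose and 1 fell, with a median log2 change of 0.47. The gene counted as lower is Ins1, which the rule limits, so its count is a description. Of 9 tested in the reduced set 0 rose and 2 fell (median -0.54).

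**Figure D5:**
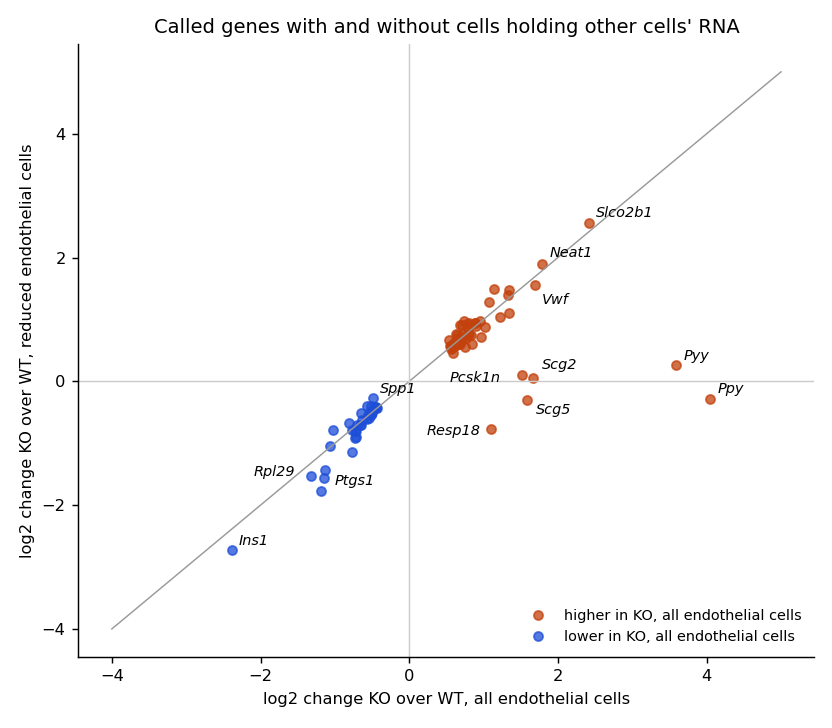
Log2 change of KO over WT for the 90 called genes tested in both cell sets, in all 711 endothelial cells and in the reduced set of 505. Ppy is at 4.04 in all cells and -0.28 in the reduced set, and Vwf at 1.69 and 1.55.

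RNA of other cell types in the endothelial sums was measured with the lists of their markers. The stromal and pericyte list summed to 1099 and 1024 CPM in KO and 1018 and 865 CPM in WT, and 1 of 14 tested genes rose, the fibroblast gene Mfap5, whose UMIs all lay in at most 5 cells of any library. The ductal list summed to 2146 and 1902 CPM in KO and 2709 and 2676 CPM in WT with Krt19 and Cftr at 0, and 1 of 4 tested genes fell, the secreted phosphoprotein Spp1, with 2113 and 1866 CPM in KO and 2692 and 2657 CPM in WT in all endothelial cells and 14.9 and 3.62 CPM in KO and 10.9 and 8.99 CPM in WT in the reduced set. The macrophage and leukocyte list summed to 9.95 and 32.1 CPM in KO and 15.7 and 30.0 CPM in WT, with 3 of 14 genes at 0 (Adgre1, Cd79a and Cd79b). The acinar list summed to 1.47 and 1.65 CPM in KO and 3.77 and 2.40 CPM in WT, with 5 of 14 genes at 0, and the Schwann list to 119 and 85.1 CPM in KO and 131 and 82.8 CPM in WT. The erythroid list summed to 2981 and 9.46 CPM in KO and 0 and 0.60 CPM in WT, nearly all of it in KO replicate 1. Their part in the genotype differences was not tested beyond the reduced set.

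Whether the genotype difference was larger in endothelial than in other non-endocrine cells was tested as an interaction. Against stromal cells (55 and 33 cells in KO, 36 and 32 in WT) 2 of 9362 genes were called (0.0214%). Ccl11, a chemokine of fibroblasts, had 2.58 and 5.76 CPM in KO and 74.2 and 20.4 CPM in WT in endothelial cells and 253 and 257 CPM in KO and 318 and 182 CPM in WT in stromal cells, a difference of log2 changes of -3.38 ± 0.45 (adjusted p 0.048, and up to 1.0 over the alternatives). The 5 highest endothelial cells held 100% and 85.7% in KO and 99.2% and 100% in WT of its UMIs. The other gene, Pcsk1n, encodes a granule protein of endocrine cells. Against macrophages (83 and 59 cells in KO, 124 and 114 in WT) 0 of 9825 genes were called by edgeR (0.0%) and 0 by limma-voom, with 776 at an unadjusted p under 0.05 in edgeR. The smallest adjusted p, 0.059, was shared by Pyy, Ptgs1, Neat1 and Neurl3, which are named after their values were seen. In macrophages Ptgs1 had 54.2 and 52.9 CPM in KO and 25.5 and 26.4 CPM in WT, and Neurl3 had 62.1 and 71.4 CPM in KO and 77.4 and 77.6 CPM in WT. Their log2 changes in macrophages were 0.94 ± 0.23 and -0.32 ± 0.17, and the difference from endothelial cells did not pass the threshold (adjusted p between 6.0e-05 and 0.68 for Ptgs1 over the alternatives).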

How the data were processed

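Per the labels' protocols, islets were recovered overnight and trypsinised before 3′ libraries were prepared. The deposited files hold raw UMI counts of 19074 genes per cell for 4 libraries. The submitters' processing notes name Cell Ranger 3.0.0, Seurat 2.3.4 and the mouse build mm10; filters on cells are not given in the sources used here. Cells were kept as deposited, and Scrublet calls (scanpy 1.11.5) served only as an alternative. UMIs were summed per library and class and tested with edgeR 4.0.16 (R 4.3.3) under TMM scaling, its filter on low counts and Benjamini-Hochberg adjustment; the interaction fits kept the library as a block. CPM divides each sum by its total per 1000000. Endothelial sums held from 1590069 to 2712842 UMIs. Precision depends on these counts and on the spread between the 2 libraries of each genotype. Each fit was first tested on simulated counts. Gene coordinates are from GENCODE vM21 and promoters from RefSeq.

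The cells, gene lists and tests were chosen with earlier results of these data known. The text names Sel1l, the rule markers and Esm1, the 12 genes that rose most and the 12 that fell most among those called, given 50 CPM or more in the higher group and no overlap between genotypes, up to 3 called genes of each list, the 20 genes with the highest endothelial ratio, the called genes of each interaction, and subtype and hormone genes. Sex-linked and mitochondrial genes were not eligible among the largest changes. Other genes are said to be named after their values were seen. A gene that the rule names is not reported here. Alternatives were other scaling (RLE factors, library size alone and sums scaled by the number of cells), DESeq2 1.42.0 and limma-voom (limma 3.58.1). Further ones were other count filters, other cell rules, a replicate block and leaving out each library. Leaving out cells with RNA of other cell types was added after the data were seen.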

Additional observations from a re-analysis of the deposited data

Results flagged for a closer look

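The genotype effect differed between endothelial and stromal cells, by the interaction test, for 2 genes. Pcsk1n, which encodes a granule protein of endocrine cells and is named after its values were seen, had an effect larger by 4.13 on the log2 scale in endothelial cells (adjusted p 0.048 by edgeR), and by 2.76 in the reduced set, where the adjusted p was 0.23. It had 92.9 and 72.8 CPM in KO and 22 and 33.6 CPM in WT endothelial cells (log2 change 1.51), and 23 and 17.7 CPM in KO and 183 and 61.5 CPM in WT stromal cells (-2.63), so the larger part of the difference lay in the stromal cells. The 5 highest endothelial cells held 66.7% and 72.9% of its UMIs in KO and 22.9% and 17.9% in WT, and in the reduced set its endothelial log2 change was 0.098. Among stromal cells, WT replicate 1 had the most Pcsk1n and also carried islet hormone RNA. Its stromal sum held 10762 CPM of Ppy and 6942 CPM of Pyy, compared with 372 and 206 CPM in WT replicate 2. The part of this RNA in the stromal change was not tested. Ccl11 had a difference of -3.38 (adjusted p 0.048 by edgeR) and of -2.16 in the reduced set, where the adjusted p was 1. Over all alternatives the adjusted p of Pcsk1n reached 0.23 and that of Ccl11 reached 1.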

How the results depend on the processing

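The 98 genes called by genotype became 6342 with sums scaled by the number of cells, 688 with no filter on low counts, 33 with a mean of at least 20 counts, 31 without high Scrublet scores, 31 with insulin under 2% of UMIs, 43 without cells holding RNA of other cell types and 64 in those cells with library size alone. Leaving out 1 library gave 32 to 198 calls, and 55 to 372 in the reduced set (245 without WT replicate 2). RLE factors, library size, DESeq2, limma-voom, endocrine genes left out, at least 5 markers and equal cell numbers gave 91 to 116. DESeq2 called 45 higher and 53 lower. With the replicate block the count was 13, of which 8 were among the 98. Deviations of same-numbered libraries had a correlation across genes of -0.072. With only 2 libraries of each genotype, this value cannot show whether the replicate numbers pair the libraries, and the labels do not say.

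Of 9362 genes, 2 differed from stromal cells, against 0 with library size alone, 59 with no filter, 0 with limma-voom, 1 without high Scrublet scores, 0 in the reduced set and 0 to 26 without 1 library. Against macrophages the 0 calls became 2, 43, 4 and 3 with library size, no filter, Scrublet and the reduced set, and 0 to 235 without 1 library. Per cell, the log2 change turned positive for Emcn (0.23), Eif4ebp1 (0.013), Id3 (0.17), Col13a1 (0.12), Asns (0.025), Cdkn1a (0.10) and Spp1 (0.19). In the reduced set it turned negative for Ppy (-0.28, and -0.22 with library size alone) and Resp18 (-0.78 and -0.71). The share difference of 2.72 points stayed between 1.94 and 2.84 under 5 other cell rules. The causes were not tested. With 2 libraries a genotype and under 200 cells each, small changes in low genes were not detectable.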
